A study of Mus musculus with 8 samples.

Results

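Gap junction connexins are the subject here, taken as 8 listed genes: Gja1, Gja4, Gjb1, Gjb2, Gjb5, Gjb6, Gjc1 and the related pannexin gene Panx1. Each had 1 probe set among the 25050 genes measured, and the whole connexin and pannexin family had 23 genes on the array. RNA came from mammary epithelial cells of wild-type FVB mice in their first reproductive cycle, taken at day 4 of lactation (4 arrays, secretory activation) or day 14 of pregnancy (4 arrays, secretory differentiation). No agonist, transgene or mutation was part of any group used here, and ages are not given in the labels. Per the labels' protocols, the tissue was digested with enzymes to remove adipocytes and the cells were pelleted and frozen. The values are log2 GC-RMA intensities, in which a step of 1 is a doubling of signal.

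Connexins are membrane proteins that assemble in rings, and a ring in one cell docks with a ring in the next to form a gap junction, a channel for ions, second messengers and small metabolites. In the mammary gland Cx26 and Cx32 join the luminal secretory cells to each other, while Cx43 joins the contractile myoepithelial cells around them. Pannexins share the membrane topology of connexins but mostly form channels in a single membrane, through which ATP leaves the cell.

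Beta connexins of the luminal cells moved in opposite directions between the stages. Gjb1 (Cx32) was higher at lactation day 4, Gjb2 (Cx26) and Gjb6 (Cx30) were lower, and the other 5 members were not called. The regions just before the transcript starts of these 3 genes are shown because they are the genes that changed. They are RefSeq sequences of build GRCm38.p6, 250 bases each, read 5′ to 3′ on the strand of the gene, and capitals mark matches to GGGCGG (the GC box), TTCNNNGAA (the STAT motif), TATAAA (the TATA box) and TGANTCA (the AP-1 motif) on either strand.
Gjb1, start site 4 of 4, chrX:101383482-101383731, plus strand: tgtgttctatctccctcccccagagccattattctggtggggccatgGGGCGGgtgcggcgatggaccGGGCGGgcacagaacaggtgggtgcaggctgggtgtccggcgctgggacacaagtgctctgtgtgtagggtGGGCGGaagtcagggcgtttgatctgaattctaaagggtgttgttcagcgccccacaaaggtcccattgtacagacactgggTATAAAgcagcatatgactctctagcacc
Gjb2, chr14:57104703-57104952, minus strand: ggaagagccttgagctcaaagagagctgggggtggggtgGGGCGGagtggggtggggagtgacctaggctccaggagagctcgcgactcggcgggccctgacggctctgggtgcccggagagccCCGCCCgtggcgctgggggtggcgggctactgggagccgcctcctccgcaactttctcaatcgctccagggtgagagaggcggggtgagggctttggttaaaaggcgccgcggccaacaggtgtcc
Gjb6, chr14:57133612-57133861, minus strand: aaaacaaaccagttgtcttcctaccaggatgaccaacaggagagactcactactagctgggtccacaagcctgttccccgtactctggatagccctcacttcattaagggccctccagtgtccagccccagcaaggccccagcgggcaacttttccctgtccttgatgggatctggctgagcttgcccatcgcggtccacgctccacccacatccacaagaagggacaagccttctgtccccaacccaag

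The Gjb2 window held 2 GC boxes and had a GC content of 69.2%, against a median of 52.4% over all windows. None of the 4 letter patterns occurred in the Gjb6 window, which had a GC content of 56.8%. The Gjb1 window shown held 3 GC boxes and a TATA box whose first letter lies 29 bases before the start, whereas the windows of its 3 other annotated starts held no match. Among 32851 RefSeq windows of the same length, 32.7% held a GC box, 7.02% the STAT motif, 12.4% a TATA box and 6.75% the AP-1 motif. A match describes the letters only, and which Gjb1 start was in use was not measured here. Windows were matched for 7 of the 8 members.

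Lactation day 4 replicate 2 stood apart from the other lactation arrays in vascular, stromal, basal and macrophage markers. It was the lowest of the 4 lactation arrays in 12 of 12 endothelial markers, 7 of 7 pericyte and vascular smooth muscle markers, 10 of 11 fibroblast markers, 9 of 10 macrophage markers and 10 of 12 basal and myoepithelial markers. It was the lowest in only 1 of 8 T cell, 2 of 6 red blood cell, 3 of 8 adipocyte and 2 of 12 luminal markers, and the T cell and adipocyte means were lowest on replicate 4 (4.81 and 6.84). The red blood cell mean was lowest in lactation on replicate 2 (6.43), and so were 6 of 6 arterial markers. Member values that rest on replicate 2 are given with and without it. Epithelial markers were present at both stages, with the alveolar transcription factor Elf5 at 11.10 ± 0.06 in lactation and 10.81 ± 0.14 in pregnancy, and the myoepithelial actin Acta2 at 11.47 ± 0.22 and 11.55 ± 0.05 (SD, n = 4 each). The endothelial cadherin Cdh5, at 9.66 ± 0.67 in lactation and 9.54 ± 0.46 in pregnancy, was also detected, so the pellets held vascular RNA. In such bulk samples, fewer cells of a type and less RNA per cell cannot be told apart. Nothing in the labels says that each array came from its own mother, so the p-values may reflect technical spread alone.

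Gjb1 encodes Cx32, a connexin of secretory cells that is also abundant in liver. It read 6.76, 7.00, 6.50 and 6.37 on the lactation arrays, against 4.39, 4.50, 4.63 and 4.42 on the pregnancy arrays. The lowest lactation array lay 1.73 log2 units above the highest pregnancy array, so the stages did not overlap. The mean was 6.65 ± 0.28 in lactation and 4.48 ± 0.11 in pregnancy, 4.5-fold higher in lactation, or 2.17 on the log2 scale (SE 0.136, 95% CI 1.87 to 2.47, limma adjusted p = 6.47e-06). Ordered by signed log2 fold change, Gjb1 was rank 65 from the top among 25050 genes. Its pregnancy mean was below that of Gjc1 (4.69), a gene among the dimmest 40%, so the size of the rise may be compressed.

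Gjb6 encodes Cx30, which can assemble into mixed channels with Cx26, best known from the cochlea. Its values were 6.48, 6.48, 6.78 and 6.42 in lactation, against 8.83, 8.75, 9.02 and 8.64 in pregnancy. All 4 lactation arrays were lower, with a gap of 1.86 log2 units between the stages. Gjb6 fell 4.82-fold to 6.54 ± 0.16 in lactation, against 8.81 ± 0.16 in pregnancy (log2 fold change -2.27, SE 0.113, 95% CI -2.52 to -2.02, limma adjusted p = 2.18e-06). Across all genes, 26 had a more negative log2 fold change.

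Gjb2 encodes Cx26, the luminal connexin that lies next to Gjb6 on chromosome 14. It read 9.57, 8.94, 9.53 and 8.88 in lactation, against 11.10, 10.81, 10.89 and 10.43 in pregnancy. Again no array crossed over, although the gap of 0.86 log2 units was narrower than for the other 2 genes. Gjb2 fell 2.98-fold to 9.23 ± 0.37 in lactation, against 10.81 ± 0.28 in pregnancy (log2 fold change -1.58, SE 0.186, 95% CI -1.99 to -1.16, limma adjusted p = 3.06e-04).

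**Figure D1:**
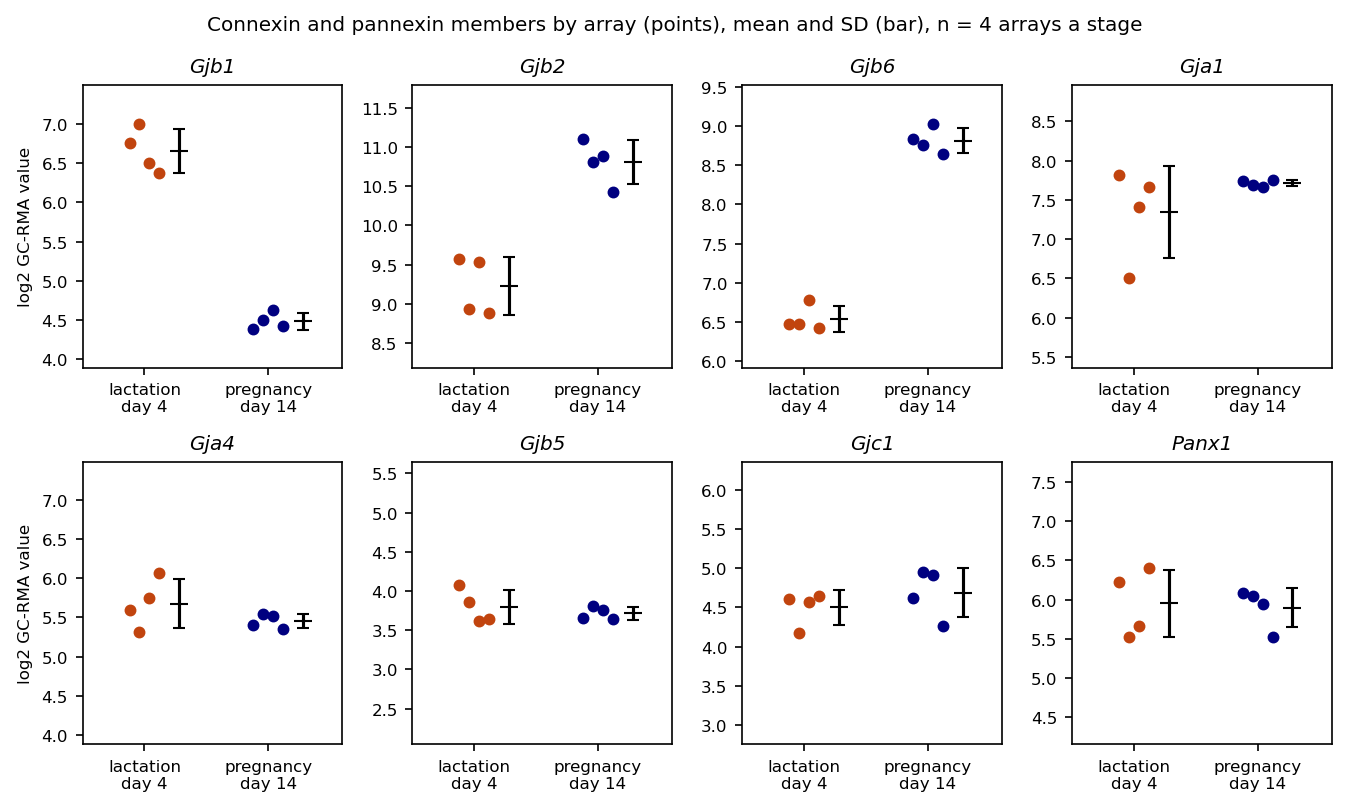
Each panel plots the log2 GC-RMA value of 1 gene on the 4 lactation day 4 arrays (left) and the 4 pregnancy day 14 arrays (right), with the mean and SD as a bar; every vertical axis spans 3.6 log2 units. Gjb1 lies higher in lactation and Gjb2 and Gjb6 lower with no overlap, while the stages overlap in the other 5 panels.

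Of the 8 members, 1 was called higher and 2 lower in limma, at an adjusted p under 0.05 over all genes. Over the 25050 genes 25.8% were called, 9.73% higher and 16.1% lower, so a count of 3 among 8 is close to the background. The arrays of the stages did not overlap in 3 of 8 members, against 29.6% of all genes (12.1% with lactation above, 17.4% with lactation below). Over all genes 1.07% were called with a change at least as large as that of Gjb2, the smallest of the 3. That cutoff was taken from the members themselves, so the 3 meet it by construction and the share is no test of them. The direction of calls over all genes depended on the scaling: 62.3% were lower in the deposited values, 53.2% after quantile scaling, 47.1% when each array was centred on its own median and 18% when it was centred on the brighter genes. Gjb1, Gjb2 and Gjb6 kept direction and call under each of these scalings and in all 19 alternatives.

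Because 2 members can each be measured on the same array, the difference between them was taken within arrays. For Gjb1 against Gjb6 or Gjb2 it is given with no test, since genes that do not overlap in opposite directions must separate in their difference too. Gjb1 minus Gjb6 was 0.27, 0.52, -0.28 and -0.06 on the lactation arrays, against -4.44, -4.25, -4.39 and -4.22 on the pregnancy arrays. The balance of these probe sets thus moved by 4.44 log2 units. Gjb1 minus Gjb2 moved by 3.75, with -2.58 ± 0.47 in lactation and -6.32 ± 0.29 in pregnancy (SD, n = 4 each). A value of such a difference is not a ratio of transcripts, since each probe set has its own response, and only its change between stages is read here. That response may also alter the size of a change, so the shifts are shifts of signal.

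In probe set signal, the neighbours Gjb2 and Gjb6 fell by unequal amounts. Gjb2 minus Gjb6 was 3.08, 2.46, 2.75 and 2.46 in lactation, against 2.28, 2.06, 1.87 and 1.79 in pregnancy. Each lactation value was above each pregnancy value, and Gjb6 fell further by 0.69 log2 units (exact two-sided permutation p = 0.0286, adjusted p = 0.0444 over the 28 pairs of members). The p of 0.0286 is the smallest that 70 splits of 8 arrays allow, and the adjusted value is set by the 18 pairs that share it. Those are the pairs that hold Gjb1, Gjb2 or Gjb6. They include Gjb1 with Gjb2 and Gjb1 with Gjb6, whose separation was fixed in advance. The adjusted value is therefore no added support for the pair of Gjb2 and Gjb6.

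**Figure D2:**
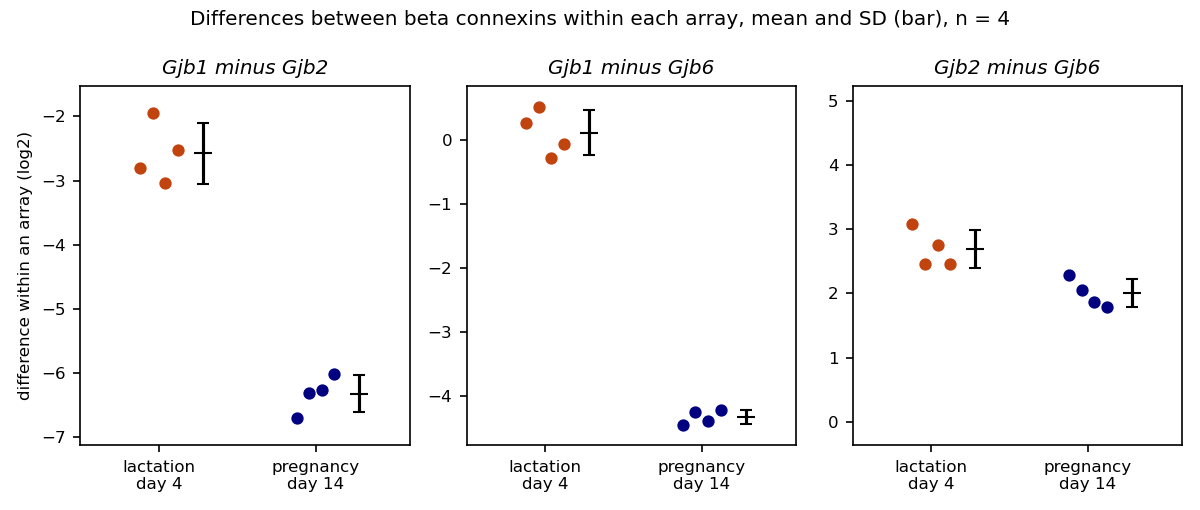
The log2 difference between 2 beta connexins within each array is plotted for lactation day 4 (left) and pregnancy day 14 (right), with mean and SD as a bar and 4 arrays a stage. Gjb1 gained on both other genes, and Gjb2 lost less than Gjb6.

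Gjb5 encodes Cx31.1, a beta connexin of skin and placenta. It read 4.08, 3.86, 3.62 and 3.64 in lactation, against 3.66, 3.81, 3.76 and 3.64 in pregnancy. These stages overlapped, and the log2 fold change of 0.08 was not called (95% CI -0.14 to 0.30, limma adjusted p = 0.569). Without lactation day 4 replicate 1 it was -0.01 (limma adjusted p = 0.934). Like Gja4, the gene lies on chromosome 4. Its signal was among the dimmest 40% of genes, where GC-RMA can compress differences.

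Gja1 encodes Cx43, the connexin of myoepithelial cells and also of fibroblasts. It read 7.82, 6.51, 7.41 and 7.66 in lactation, against 7.74, 7.69, 7.67 and 7.75 in pregnancy. The pregnancy arrays lay within 0.07 log2 units of each other, whereas the lactation arrays spanned 1.31, with replicate 2 lowest. The log2 fold change of -0.36 (SE 0.238, 95% CI -0.89 to 0.17) was not called (limma adjusted p = 0.282). Without lactation day 4 replicate 2 it was -0.08 (limma adjusted p = 0.618). On that same array the mean of 12 basal and myoepithelial markers was 8.20, while the remaining lactation arrays gave 8.62 to 9.17 and the pregnancy arrays 8.66 to 8.83. Its fibroblast marker mean was 6.44, where the remaining lactation arrays gave 7.26 to 7.49 and the pregnancy arrays 7.80 to 8.52. Over the basal and myoepithelial list 1 gene was called higher and 2 lower, with a median log2 fold change of -0.02. The part of these cells in the Gja1 value was not tested.

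Gja4 encodes Cx37, a connexin of arterial endothelium. Its values were 5.59, 5.31, 5.74 and 6.06 in lactation, against 5.40, 5.54, 5.52 and 5.35 in pregnancy. The stages overlapped, and its log2 fold change was 0.22 (SE 0.144, 95% CI -0.10 to 0.54, limma adjusted p = 0.279). Gja5, encoding the other arterial connexin Cx40, read 5.28, 4.48, 5.04 and 5.37 in lactation, against 4.60, 4.54, 4.62 and 4.59 in pregnancy. For Gja5 the log2 fold change of 0.45 missed the threshold (SE 0.167, limma adjusted p = 0.0723), but it was 0.64 and called without lactation day 4 replicate 2 (limma adjusted p = 0.00195). Gja4 had 0.34 without that replicate (limma adjusted p = 0.0838) and 0.09 without lactation day 4 replicate 4 (limma adjusted p = 0.58). Both genes were lowest in lactation on replicate 2, where the mean of 12 endothelial markers was 7.02, where the remaining lactation arrays gave 7.99 to 8.37 and the pregnancy arrays 7.49 to 8.26. No endothelial marker of 12 and no arterial marker of 6 was called in limma, and 0 and 2 of them had an unadjusted p under 0.05, with median log2 fold changes of -0.05 and 0.25. All 6 arterial markers, which include Gja5, had positive values, and their part in the Gja4 and Gja5 levels was not tested.

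Gjc1 encodes Cx45, found in vascular smooth muscle and the conducting tissue of the heart. It read 4.61, 4.17, 4.57 and 4.65 in lactation, against 4.62, 4.95, 4.92 and 4.27 in pregnancy. Both stages contained a low array, and the log2 fold change of -0.19 was not called (95% CI -0.55 to 0.17, limma adjusted p = 0.405). The 2 low arrays, lactation replicate 2 and pregnancy replicate 4, also had the lowest means of the 7 pericyte and vascular smooth muscle markers in their stages, 6.19 and 6.66. They were likewise lowest in their stages for the endothelial list (7.02 and 7.49) and the arterial list (5.03 and 5.10). None of the 7 pericyte and vascular smooth muscle markers was called in limma (1 had an unadjusted p under 0.05), with a median log2 fold change of -0.28. The part of these cell types in the Gjc1 level was not tested. Without lactation day 4 replicate 2 the log2 fold change was -0.08 (limma adjusted p = 0.746). Gjc1 was also among the dimmest 40% of genes, so its differences between arrays may be compressed.

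Panx1 encodes the widely expressed pannexin that releases ATP. It read 6.23, 5.52, 5.67 and 6.40 in lactation, against 6.08, 6.04, 5.94 and 5.53 in pregnancy. Lactation replicates 1 and 4 lay above every pregnancy array and replicate 2 just below every one, with a log2 fold change of 0.06 (95% CI -0.40 to 0.52, limma adjusted p = 0.855). That sign turned without lactation replicate 1 (-0.04) or 4 (-0.09) or without pregnancy replicate 4 (-0.07), and the value was 0.20 without lactation replicate 2 (limma adjusted p = 0.487).

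**Figure D3:**
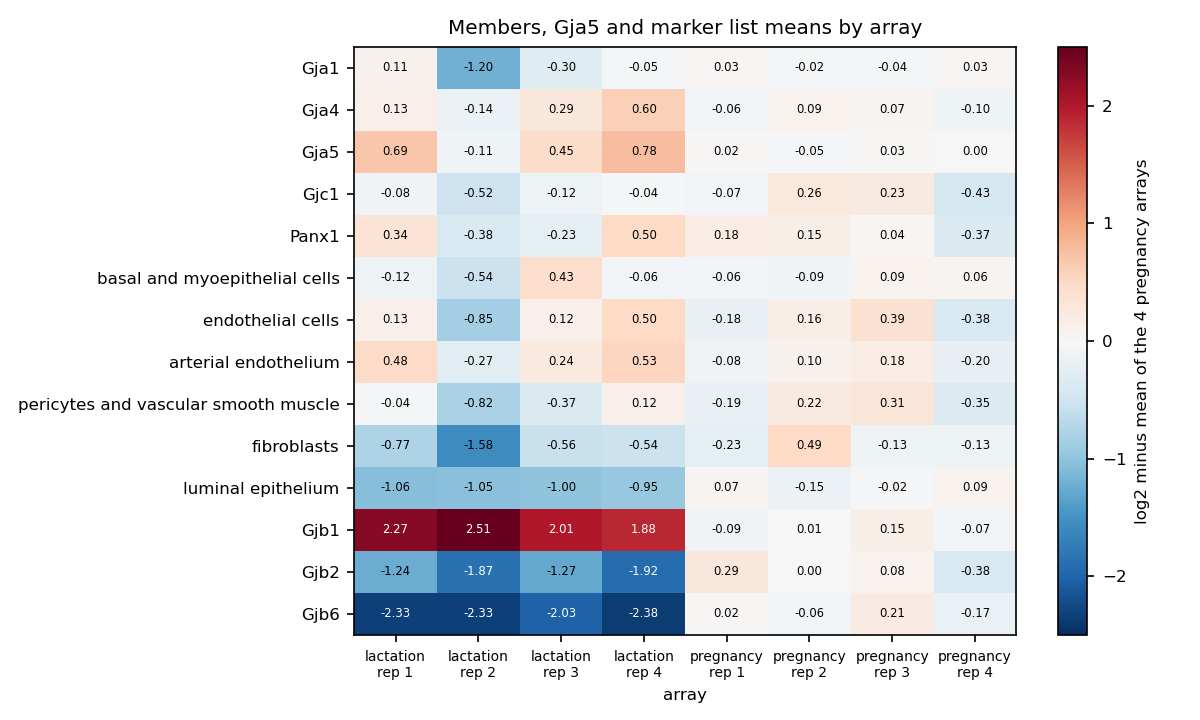
Log2 values of the members other than Gjb5, of Gja5 and of 6 marker list means are shown by array, minus the mean of the 4 pregnancy arrays; red is higher and blue lower. Lactation replicate 2 is low in Gja1 (-1.20), Gjc1 (-0.52) and the endothelial list (-0.85), while Gjb1, Gjb2 and Gjb6 differ from pregnancy on all 4 lactation arrays.

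The luminal marker list fell along with Gjb2 and Gjb6. Of its 12 genes 7 were called lower and 1 higher, with a median log2 fold change of -0.99 against 0.01 over all genes. Its mean ran from 8.31 to 8.42 in lactation and from 9.22 to 9.46 in pregnancy. The receptor Kit (-3.53) and the claudins Cldn4 (-2.24) and Cldn3 (-1.94) fell most, whereas Elf5 was the gene called higher. The list did not fall throughout: Epcam (-0.12), Cldn7 (0.04), Cd24a (-0.00) and Prom1 (-0.33) were not called. The part of the luminal markers in the Gjb2 and Gjb6 falls was not tested. Fibroblast markers were lower in 8 of 11 cases, T cell markers in 7 of 8 and macrophage markers in 3 of 10, and no member of these 3 lists was called higher. Red blood cell markers were lower in 3 of 6 cases, with none higher. Adipocyte markers were called higher in 2 of 8 cases and lower in none, with a median log2 fold change of 0.56. These 2 were the hormone gene Lep (1.18, not called in 3 of 19 alternatives) and Adig (0.95), while the adipokine Adipoq averaged 6.47 ± 0.72 in lactation and 6.40 ± 0.92 in pregnancy (SD, n = 4 each). The adipocyte list mean ran from 6.84 to 8.10 in lactation and from 5.79 to 7.38 in pregnancy. The part of adipocytes in the Gjb1 rise was not tested. Without lactation day 4 replicate 2, the array lowest in fibroblast and macrophage markers, the log2 fold changes were 2.06 for Gjb1, -1.48 for Gjb2 and -2.25 for Gjb6, all called.

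Among the other 15 connexin and pannexin genes none was called in limma, and 4 had an unadjusted p under 0.05, including Gja5, Gjd3 (log2 fold change 0.45, adjusted p = 0.0961 in limma) and Gje1 (0.10, adjusted p = 0.111 in limma). Gjd3 read 6.84, 6.40, 6.08 and 6.03 in lactation, against 6.07, 6.02, 5.62 and 5.87 in pregnancy, so that only the lowest lactation array and the highest pregnancy array crossed. Over the family 18 of 23 log2 fold changes were positive, where 52.8% of all genes were. Gje1, for example, averaged 3.17 ± 0.06 in lactation and 3.08 ± 0.02 in pregnancy (SD, n = 4 each), near the lowest value of the table, 2.04, where GC-RMA can compress differences. When each array was centred on the median of its brighter 60% of genes, which puts the median of all genes at 0.19, 14 family genes were called higher, against 1 in the values as deposited. Over all 25050 genes that centring called 10807 higher, against 2438 as deposited, so the gain is not particular to the family.

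**Figure D4:**
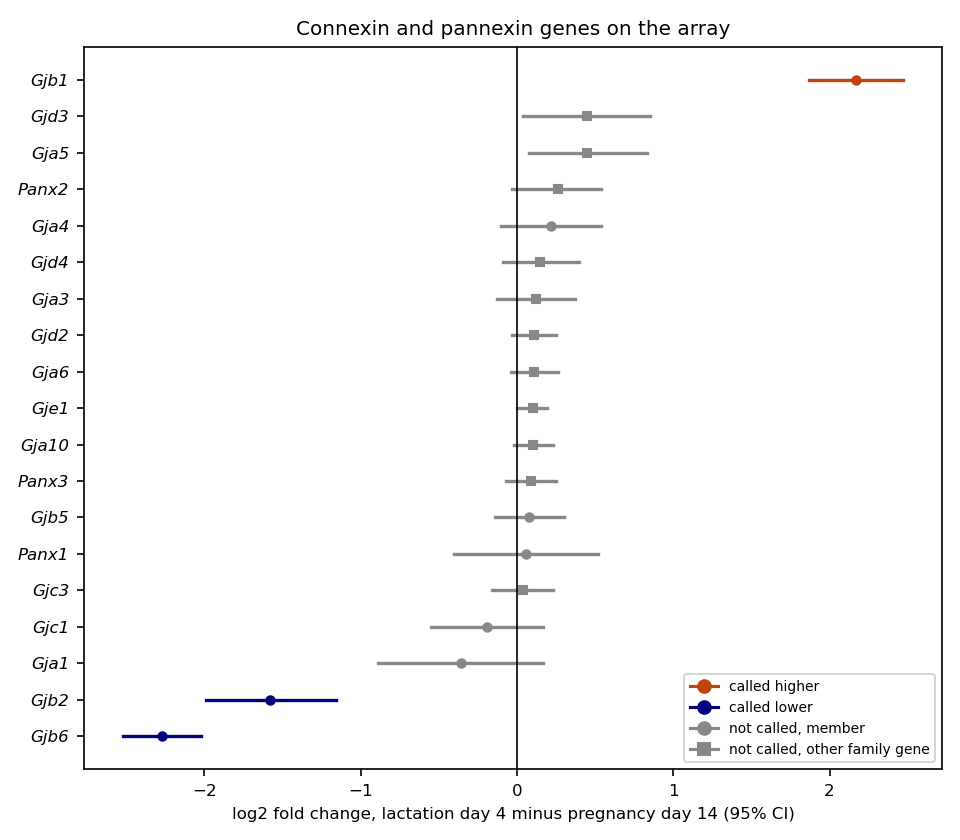
Log2 fold changes of 19 connexin and pannexin genes, lactation day 4 minus pregnancy day 14, are plotted with their 95% confidence intervals; circles are the 8 members and squares the other family genes. Gjb1 stands alone at 2.17, Gjb2 and Gjb6 lie at -1.58 and -2.27, and all others shown lie between -0.36 and 0.45.

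The 2 nearest protein-coding genes on each side of the 3 changed members, where they had a probe set, were compared by their order in GRCm38.p6. Gja3, encoding the lens connexin Cx46, lies beside Gjb2 and differed by 0.12 on the log2 scale, which was not called (limma adjusted p = 0.465). On the other side of Gjb6, Cryl1, a crystallin-related dehydrogenase, fell by 0.92 (limma adjusted p = 2.26e-04) and Ift88, of ciliary transport, fell by 0.60 (adjusted p = 0.0042 in limma). Gjb2, Gjb6, Cryl1 and Ift88 were thus each called lower at lactation day 4, by amounts from 0.60 to 2.27, while Gja3 was not called. Over all genes 16.1% were called lower, and whether position plays a part was not tested. Around Gjb1 on the X chromosome, Nono, an RNA-binding protein, fell by 0.79, Med12, of the Mediator complex, by 0.56 and Zmym3 by 0.43 (limma adjusted p = 3.65e-05, 0.00549 and 0.0367), the last a call that ended under 12 of 19 alternatives. Zmym3 and Nono lie on one side of Gjb1, and Nlgn3 and then Med12 on the other. Nlgn3, the gene next to Gjb1 on that side, had 0.17 (limma adjusted p = 0.227).

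Genes with the array profile most like each changed member were found by the root mean square distance between profiles over the 8 arrays, after subtraction of each gene's mean. Nearest to Gjb1 were Glrx, a glutaredoxin (distance 0.134 log2 units), Slc1a3, a glutamate carrier (0.176), and Gnmt, a glycine methyltransferase (0.185). For Gjb6 they were Fermt1, an activator of integrins (0.159), the transcription factor Sox4 (0.175) and the tight junction claudin Cldn4 (0.175). Gjb2 was closest to the receptor Tnfrsf19 (0.136), the RNA-binding Mex3a (0.162) and the signalling adaptor Pik3ap1 (0.171). The measure reflects mostly the difference between stages, which all 9 genes share in direction and size with their member.

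Transcripts for proteins that hold, move or modify connexins were lower more often than higher in the values as deposited. In a list of 25 genes for partners, trafficking proteins and kinases, 11 were called lower and 1 higher. Their median log2 fold change was -0.27, and over all genes 16.1% were called lower and 9.73% higher. The lean to lower calls depends on the scaling. Over all genes 62.3% of calls were lower as deposited, and 18% with arrays centred on the brighter genes. This list and the junction lists below were not counted under the other scalings. Cdh1, the E-cadherin whose adhesion precedes gap junction assembly, averaged 7.86 ± 0.16 in lactation and 9.05 ± 0.15 in pregnancy (SD, n = 4 each), a fall of 1.19 on the log2 scale (limma adjusted p = 5.62e-05). Nedd4, a ubiquitin ligase that binds Cx43, fell by 0.68 (limma adjusted p = 7.32e-05), and the caveolin Cav2 rose by 1.23 (limma adjusted p = 0.00144). Of 18 genes of ATP release and purinergic signalling 3 were higher and 2 lower, with a median of -0.02. Slc17a9, the vesicular ATP carrier, averaged 5.66 ± 0.30 in lactation and 4.97 ± 0.22 in pregnancy (SD, n = 4 each), a rise of 0.69 on the log2 scale (limma adjusted p = 0.0109).

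Other junction families gave a scale for the connexin values. Among 20 claudins 3 were higher and 4 lower, with a median of 0.11 and the largest change in Cldn1 (-2.61, limma adjusted p = 3.30e-05). Of 12 desmosome genes 1 was higher and 3 lower, with a median of -0.04 and the largest change in the desmocollin Dsc2 (-1.25, limma adjusted p = 1.84e-05). Of 11 adherens junction genes 6 were lower and none higher, with a median of -0.43, and Nectin4 followed Cdh1 with a fall of 1.16 (limma adjusted p = 1.00e-04). The 8 connexin members had a median of -0.07, and whether the families differ was not tested.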

How the data were processed

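Log2 values per probe set and array were deposited by the authors. They were made with GCRMA and Partek, per the submitters' processing notes. Tool versions, options, annotation release and genome build: not given in the sources used here. The values were used without further normalization. Both deposited tables hold them (largest difference 0).

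Of 35556 probe sets 26836 carried a gene symbol. Symbols were updated with the RefSeq table of GRCm38.p6 (22040 by accession, 3611 by symbol, 143 by synonym, 1042 left as given), and each gene was represented by its brightest probe set over the 8 arrays, giving 25050 genes. The stage contrast (lactation minus pregnancy) was fitted for every gene in limma 3.58.1 under R 4.3.3, using eBayes with a trend in intensity. P-values were adjusted over all genes by Benjamini-Hochberg, with no filter on dim genes. The fit was tested on simulated data. The number of arrays limits precision: the median half-width of a 95% confidence interval was 0.21 log2 units. Single pairs were compared by exact permutation over arrays.

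Members, gene lists and cell type markers were chosen with earlier results of these data known. Named genes were all members, the family, up to 3 called genes with the largest change in each list and 3 genes most like each of the 3 most changed members. Some genes that this rule names are not reported here. Neighbouring genes, and single markers without a call, were added after values were seen. Of the T cell list 1 gene, Trac, had no probe set under its symbol.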

Additional observations from a re-analysis of the deposited data

Results flagged for a closer look

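Over 46 groups of 4 arrays from the 23 family genes, 2 held an array far from the other 3 by a criterion that chance meets in about 1 in 20 groups. Gjb6 read 6.78 on lactation day 4 replicate 3, above 6.42 to 6.48 on the other lactation arrays and below every pregnancy array. Gjc1 read 4.17 on lactation day 4 replicate 2, below 4.57 to 4.65 on the other lactation arrays.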

How the results depend on the processing

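Calls and directions of Gjb1 (2.03 to 2.35), Gjb2 (-1.70 to -1.40) and Gjb6 (-2.35 to -2.09, all log2 fold changes) held in all 19 alternatives, and 2 members were called lower in each. Centring on the brighter 60% of genes, chosen after seeing the data, gave 13180 called genes against 6463, and called 2 members (Gja4 added, 0.40, limma adjusted p = 0.0294) and 14 family genes higher. Of the genes so called 10807 were higher, against 2438 as deposited. Family genes called higher numbered 2 with array weights, after quantile normalization, without the dimmest 40% of genes and without lactation replicate 2 with pregnancy replicate 4 (added after seeing the data). They numbered 3 with arrays centred on the median and with the replicate block, and 1 to 2 when single arrays were left out. Those left-out fits gave 4415 to 6426 called genes and 17 to 19 called pairs. Signs turned in 7 cases among the genes named, none called. These were Gjc3 (-0.04) after quantile normalization, Gjc3 without lactation replicate 1 or pregnancy replicate 1 (-0.02 each) and Gjb5 without lactation replicate 1 (-0.01). Panx1 turned without lactation replicate 1 (-0.04) or 4 (-0.09) or pregnancy replicate 4 (-0.07). With single arrays left out, the ranges were -0.02 to 0.10 for Gjc3, -0.01 to 0.14 for Gjb5 and -0.09 to 0.20 for Panx1. The causes were not tested. Same-numbered arrays shared their number and, for replicates 1 to 3, a letter in the title. Their deviations correlated at 0.242, -0.164, 0.151 and 0.178, and the replicate block changed no call of a member.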
